A study of Rattus norvegicus with 9 samples.

Results

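MiR-144, miR-451 and miR-486 are miRNAs abundant in red blood cells, often read as markers of blood left in dissected tissue, and their levels in rat hippocampus are described here. They were taken from the deposited table by name, as every row that carries one of these miRNA numbers, whatever its arm ending. This gave 5 of the 633 miRNA rows: miR-144-3p, miR-144-5p, miR-451-3p, miR-451-5p and rno-miR-486, which the table lists without an arm ending. The rule uses names and no threshold on a measured value.

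Small RNA of the hippocampus of Sprague-Dawley rats was sequenced in 9 libraries, 3 for each of 3 groups, and counts of mature miRNAs were deposited. VEH rats received saline for 14 days and for 7 more days. MK-801 rats received the NMDA receptor blocker MK-801 (dizocilpine) at 0.2 mg/kg a day for 14 days and then saline for 7 days. In MK-801+CLO rats the same 14 days of MK-801 were followed by 7 days of clozapine (CLO) at 10 mg/kg, an antipsychotic of the atypical class. All drugs were given intraperitoneally. The labels give an age of postnatal day 21, while the housing protocol gives 5 weeks at the start of treatment. The protocol names 10 rats per group, but the labels leave unsaid whether a library is 1 rat or a pool and whether libraries come from different rats. The p-values therefore describe library-to-library spread, part or all of which may be technical. Whether the brains were perfused, which removes blood, is not mentioned in the labels.

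Red blood cells have no nucleus when mature but keep a store of miRNAs made by their precursors. MiR-144 and miR-451 are cut from one primary transcript that the erythroid factor GATA1 switches on. MiR-451 is unusual in that Argonaute 2, not Dicer, cuts its short hairpin, so that its 5p strand runs from the stem into the loop and a 3p strand is not a regular product. MiR-486 is abundant in red blood cells and in striated muscle, so it is less specific to blood than miR-451. In tissue taken with its blood, these miRNAs come with the vessels' content, although low expression by cells of the tissue can add to them.

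The sequences show what distinguishes these rows in the counts. Of the 5 rows, 4 were matched by name in the RefSeq miRNA table of assembly GRCr8, and all 4 deposited sequences equal the RefSeq ones. The mature miRNAs are printed 5′ to 3′ with the seed, bases 2 to 8, in capitals.
miR-144-3p: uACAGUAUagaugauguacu
miR-144-5p: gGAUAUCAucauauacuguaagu
miR-451-5p: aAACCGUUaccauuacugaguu
miR-451-3p: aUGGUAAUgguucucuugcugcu
No other row of the table shares any of these 4 seeds. MiR-101a-3p and miR-101b-3p share bases 2 to 7 with miR-144-3p, and miR-1193-5p shares them with miR-451-3p. The mature lengths are 20 bases for miR-144-3p, 23 for miR-144-5p, 22 for miR-451-5p and 23 for miR-451-3p. GC content runs from 30% in miR-144-3p to 43.5% in miR-451-3p.

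The 2 hairpins are neighbours on the plus strand of chromosome 10 in GRCr8, 89 bases apart, with Mir144 at chr10:63459397-63459479 and Mir451a at chr10:63459569-63459640. They are shown with their mature parts in capitals, because the distance between the arms differs.
Mir144: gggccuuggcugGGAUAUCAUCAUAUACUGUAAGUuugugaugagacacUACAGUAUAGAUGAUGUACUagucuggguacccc
Mir451a: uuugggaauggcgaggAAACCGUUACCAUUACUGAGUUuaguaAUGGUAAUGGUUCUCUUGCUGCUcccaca
In the 83 bases of Mir144, 14 bases lie between the arms. In the 72 bases of Mir451a, 5 bases do. MiR-451-5p takes bases 17 to 38 of its hairpin, and the annotated miR-451-3p takes bases 44 to 66.

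The libraries held 10665718 to 18284905 counts. Levels are given as CPM, a library's counts scaled to a common total, and as mean ± SD with n = 3 per group. Where a library had no count, its floor, taken as 3 counts, was 0.164 to 0.281 CPM. In these libraries the neuron miRNAs miR-124-3p, miR-9a-5p, miR-128-3p, miR-138-5p and miR-132-3p summed to 120990 to 148850 CPM, so markers of the labelled tissue were present. Intervals for single libraries and floors cover counting error only.

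The 5 rows differed widely in level. MiR-486 averaged 3076 CPM over the 9 libraries and ranked 41 of 633, between miR-98-5p (3089 CPM) and miR-146b-5p (3035 CPM). MiR-451-5p averaged 25.2 CPM at rank 264. MiR-144-5p averaged 13.6 CPM at rank 302, miR-144-3p 4.71 CPM at rank 370 and miR-451-3p 0.143 CPM at rank 528. All 5 rows together took 0.271% to 0.356% of a library, and miR-486 made up 98.4% to 98.9% of that sum. The ratio of the miR-486 level to the miR-451-5p level, both in CPM, was 130 ± 27.3 in VEH, 121 ± 10.8 in MK-801 and 121 ± 21.6 in MK-801+CLO. It ran from 104 to 160 over the libraries, so that miR-486 was at least 104 times as high in every library. CPM compares miRNAs as reads, and how efficiently each sequence is captured in a library was not tested.

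**Figure D1:**
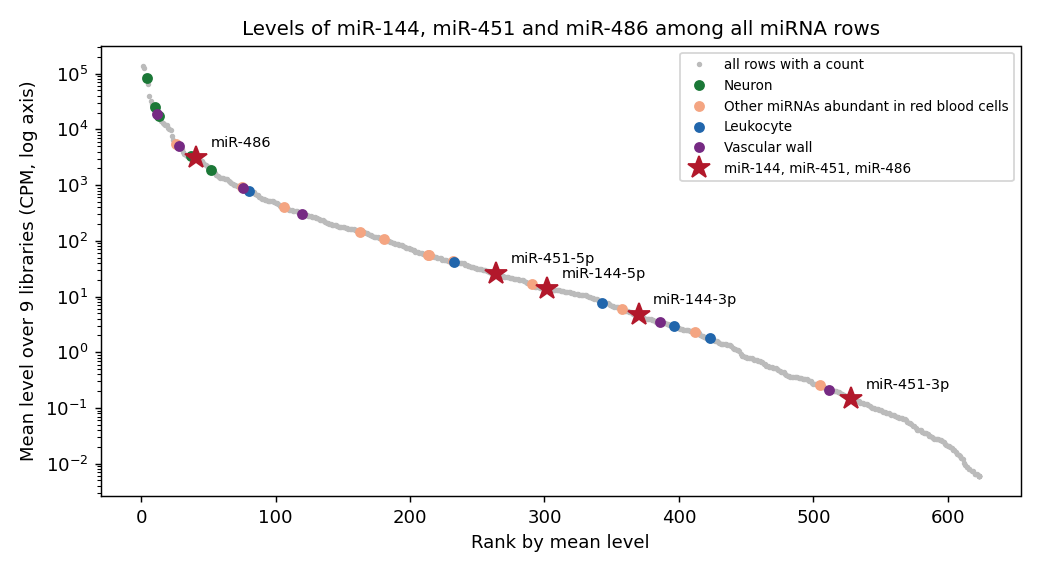
Mean level over 9 libraries (CPM, log axis) against rank by mean level for every miRNA row with a count, with miR-144, miR-451 and miR-486 as stars and marker lists as coloured points. MiR-486 at rank 41 lies among neuron and vascular miRNAs, and the other 4 rows lie at rank 264 and beyond.

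MiR-486 is known in red blood cells and muscle as a regulator of PI3K-AKT signalling. It stood at 3025, 3524 and 3351 CPM in VEH replicates 1, 2 and 3. In MK-801 it stood at 2671, 3046 and 2747 CPM, and in MK-801+CLO at 2934, 3165 and 3220 CPM. MK-801 replicates 1 and 3 were the 2 lowest of the 9 libraries, while MK-801 replicate 2 lay above VEH replicate 1, so the groups overlapped. Group means were 3300 ± 253 CPM in VEH, 2821 ± 198 CPM in MK-801 and 3106 ± 151 CPM in MK-801+CLO.

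MiR-451-5p, which in red cell precursors protects against oxidative stress, stood at 28.6, 22.1 and 26.8 CPM in the VEH replicates. It stood at 23.7, 26.01 and 20.6 CPM in MK-801 and at 20.2, 30.4 and 28.3 CPM in MK-801+CLO. The lowest and the highest library both belonged to MK-801+CLO, and the 3 groups overlapped. Group means were 25.8 ± 3.38, 23.5 ± 2.69 and 26.3 ± 5.39 CPM in VEH, MK-801 and MK-801+CLO. These levels rest on 257 to 490 counts per library.

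MiR-144-5p, an arm of the neighbouring hairpin, stood at 13.5, 13.1 and 14.9 CPM in VEH. It stood at 10.1, 15.5 and 11.8 CPM in MK-801 and at 13.5, 15.9 and 13.9 CPM in MK-801+CLO. MK-801 replicate 1 was the lowest library and MK-801+CLO replicate 2 the highest, with MK-801 replicate 2 second highest. Group means were 13.8 ± 0.930, 12.5 ± 2.77 and 14.5 ± 1.30 CPM.

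MiR-144-3p, known to target the oxidative stress factor Nrf2 in red cells, stood at 4.25, 3.82 and 6.51 CPM in VEH. It stood at 5.24, 3.41 and 4.13 CPM in MK-801 and at 4.63, 4.78 and 5.61 CPM in MK-801+CLO. VEH replicate 3 was the highest library and MK-801 replicate 2 the lowest. Group means were 4.86 ± 1.44, 4.26 ± 0.926 and 5.01 ± 0.526 CPM, from 45 to 119 counts per library.

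MiR-451-3p had 16 counts in all libraries together. It had 0, 5 and 4 counts in VEH, 0 in each MK-801 library, and 1, 6 and 0 in MK-801+CLO. It was too low to be tested, and no fold change is given for it. It made up 0.482% of the 3319 miR-451 counts, against 25.9% of 2397 miR-144 counts for miR-144-3p.

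**Figure D2:**
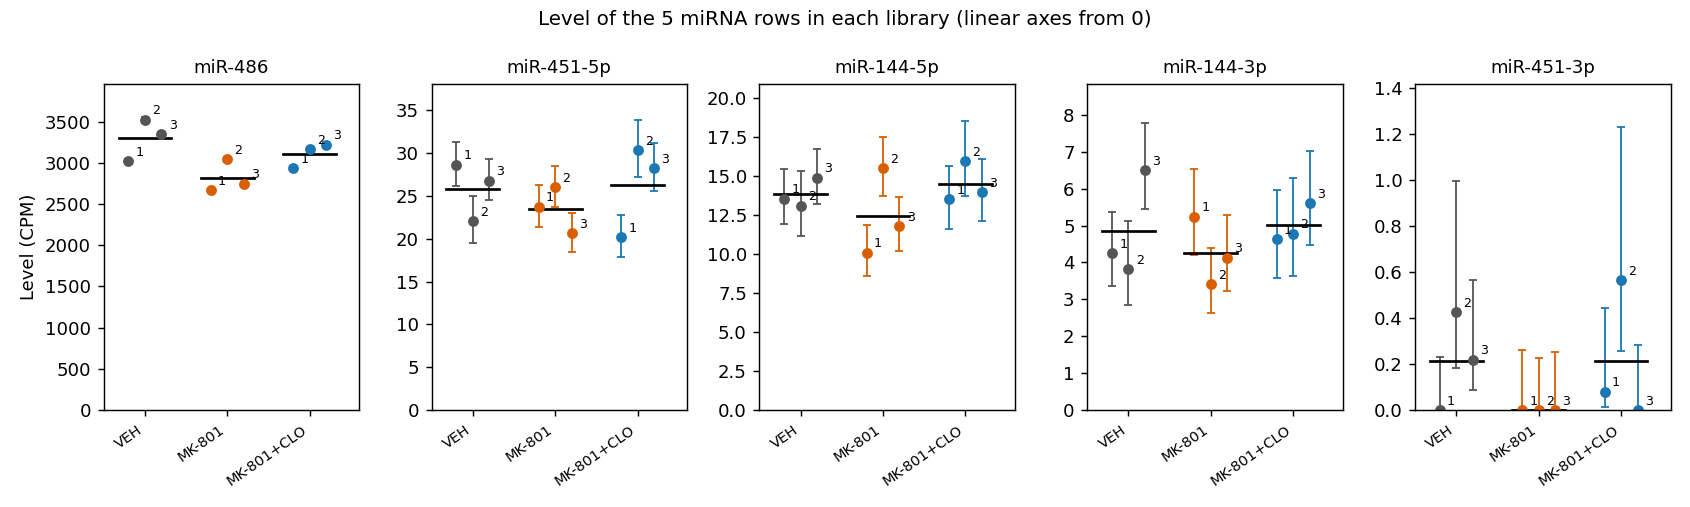
Level in CPM (linear axes from 0) of the 5 miRNA rows in each library of VEH, MK-801 and MK-801+CLO. Points carry the replicate number and 95% Wilson intervals of the counts, and black lines are group means. The groups overlap for miR-486, miR-451-5p, miR-144-5p and miR-144-3p in all 3 comparisons, and miR-451-3p is at 0 in 5 of 9 libraries.

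The first question was what differed after repeated NMDA receptor blockade. MiR-486 averaged 2821 CPM after MK-801 and 3300 CPM after saline. Its edgeR fold, scaled with TMM factors beside the library totals, was 0.868 with a 95% interval of 0.755 to 0.997 (log2 -0.20 ± 0.09 SE). Its unadjusted edgeR p was 0.046 and its adjusted p 0.814, so it did not pass. The unadjusted p stayed under 0.05 with limma voom (0.0486), no factors (0.0319), a replicate block (0.0386) and the 2 groups compared alone (0.0439). It was over 0.05 with DESeq2 (0.0656), RLE factors (0.0607), upper-quartile factors (0.33) and no filter (0.0636). It was likewise over 0.05 at a mean of at least 10 CPM (0.114) and without the 5 most abundant miRNAs (0.054). Of the 6 libraries compared, leaving out any but VEH replicate 1 also took it over 0.05, at 0.0609 to 0.157. The groups overlapped for all 4 tested members, while 13.9% of the 469 tested miRNAs had groups that did not overlap. At an unadjusted p under 0.05 with a lower level, 2.13% of the 469 tested miRNAs were called, and at an adjusted p under 0.05 0% were. MiR-451-5p was at a fold of 0.918 (95% interval 0.699 to 1.21, edgeR adjusted p = 0.895), miR-144-5p at 0.911 (0.717 to 1.16) and miR-144-3p at 0.882 (0.596 to 1.31). All 4 tested members had an estimate below 0, as had 53.5% of all tested miRNAs, but 3 of the 4 come from 1 locus. The median log2 fold change of the 4 was -0.16 against -0.02 for all. Without VEH replicate 3, the library with its highest level, the log2 fold change of miR-144-3p was 0.10 in place of -0.18. With upper-quartile scaling, which moves the median of all miRNAs from -0.02 to 0.07, miR-486 was at -0.11 and the other 3 were still below 0.

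Clozapine was then set against saline after the same MK-801 course, a comparison that shares the MK-801 libraries with the first. MiR-486 was at 3106 CPM against 2821 CPM. Its edgeR fold with TMM factors was 1.13 with a 95% interval of 0.987 to 1.30 (edgeR adjusted p = 0.623). With library totals and no factors its log2 fold change was 0.14 in place of 0.18. MiR-451-5p was at a fold of 1.16 (0.879 to 1.52, edgeR adjusted p = 0.726). MiR-144-5p was at 1.20 (0.940 to 1.52) and miR-144-3p at 1.21 (0.813 to 1.80). None of them passed, adjusted or at an unadjusted p under 0.05, where the share of all tested miRNAs called was 0% and 8.32%. The groups overlapped for all 4, against 11.5% of miRNAs without overlap. Single libraries moved these values. Without MK-801+CLO replicate 1, miR-451-5p was at log2 0.39 and miR-486 at 0.24, with unadjusted edgeR p of 0.0258 and 0.0251 and an adjusted p of 0.412 for both. Without MK-801 replicate 2, miR-144-5p was at 0.40, with an unadjusted edgeR p of 0.0325 and an adjusted p of 0.586. Over all single libraries left out, log2 values ran from 0.09 to 0.39 for miR-451-5p, lowest without MK-801+CLO replicate 2, from 0.15 to 0.40 for miR-144-5p, lowest without MK-801 replicate 1, and from 0.14 to 0.24 for miR-486. For miR-144-3p they ran from 0.10 without MK-801 replicate 2 to 0.46 without MK-801 replicate 1. All 4, most of them from 1 locus, had an estimate above 0, as had 48.8% of all tested miRNAs. Their median log2 fold change was 0.23 against -0.0044 for all. With upper-quartile scaling the median of all miRNAs moved to -0.12 and miR-486 was at 0.07.

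The third comparison, of MK-801+CLO with VEH, shares its libraries with the other two. MiR-486, at 3106 CPM against 3300 CPM, was at a fold of 0.984 with TMM factors and a 95% interval of 0.856 to 1.13 (edgeR adjusted p = 0.929). With library totals and no factors its log2 fold change was -0.09 in place of -0.02. The rows of the miR-144 and miR-451 locus were at 1.06 (0.807 to 1.39) for miR-451-5p, 1.09 (0.856 to 1.38) for miR-144-5p and 1.07 (0.720 to 1.58) for miR-144-3p. None passed, against 0% of all tested miRNAs called after adjustment and 14.9% at an unadjusted p under 0.05. The groups overlapped again for all 4, and 17.5% of tested miRNAs had no overlap. Of the 4, 3 had an estimate above 0, all from the miR-144 and miR-451 locus, as had 50.1% of all tested miRNAs. The median log2 fold change was 0.09 against 0.0034. For miR-486, miR-451-5p and miR-144-3p the sign turned when single libraries were left out. Ordered by mean level, the groups ran VEH, MK-801+CLO, MK-801 for miR-486 and MK-801+CLO, VEH, MK-801 for the other 3 tested rows, and no neighbours in either order differed at an adjusted p under 0.05. The 95% intervals, each taken alone and with TMM factors, lay between 0.755-fold and 1.30-fold for miR-486 over the 3 comparisons. For miR-451-5p they lay between 0.699-fold and 1.52-fold. They cover library-to-library spread, part or all of which may be technical, and so set no limit on differences between rats.

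**Figure D3:**
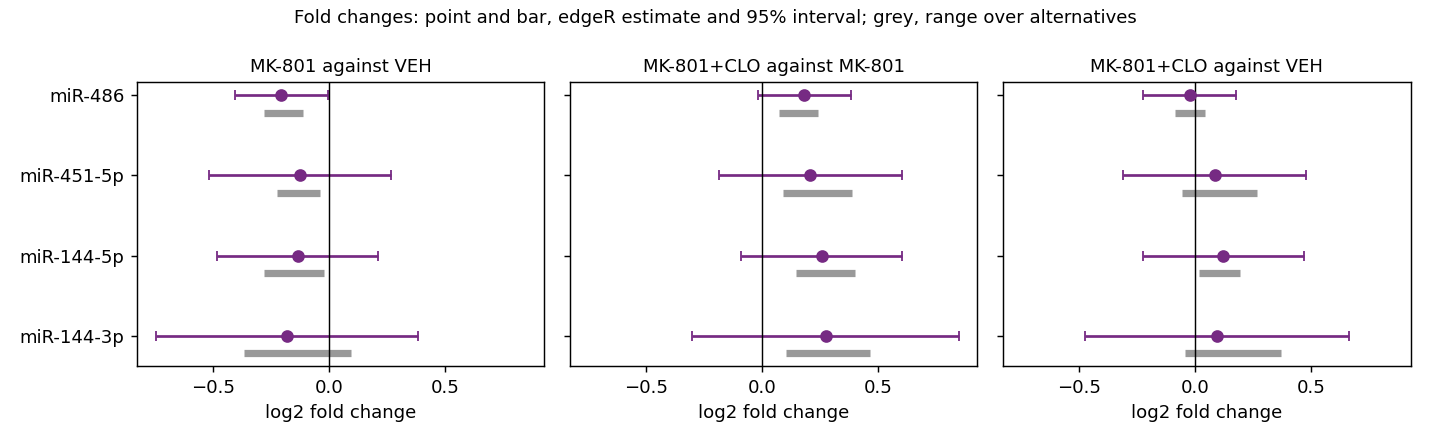
Log2 fold change of the 4 tested miRNAs in the 3 comparisons, with the edgeR estimate and its 95% interval (points and bars) and the range over 18 or 19 alternative settings (grey). The interval of miR-486 in MK-801 against VEH is the only one of the 12 that does not reach 0, at an adjusted p of 0.814, and its unadjusted p was over 0.05 under several alternatives.

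The spread between libraries was set beside the spread that counting alone gives. For miR-486 the coefficient of variation between libraries of a group was 7.67%, 7.03% and 4.87% in VEH, MK-801 and MK-801+CLO, while its counts alone give 0.448% to 0.514%. The spread of miR-486 between libraries was thus far larger than its counting error. For miR-451-5p it was 13.1%, 11.5% and 20.5%, against 5.16% to 5.65% from counting. For miR-144-5p it was 6.73% in VEH and 9% in MK-801+CLO, close to the 6.97% to 7.52% from counting, and 22.2% in MK-801. For miR-144-3p it was 29.7% and 21.8% in VEH and MK-801 against 12.2% and 12.4% from counting, and 10.5% in MK-801+CLO, below its 12.9% from counting. The biological coefficient of variation that edgeR assigned was 10.4% for miR-486, which is lower than for all but 2.77% of the tested miRNAs. It was 16.1% for miR-451-5p, 13.8% for miR-144-5p and 20.5% for miR-144-3p, against a median of 14.6%, and 78.7% of tested miRNAs had a lower value than miR-144-3p.

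**Figure D4:**
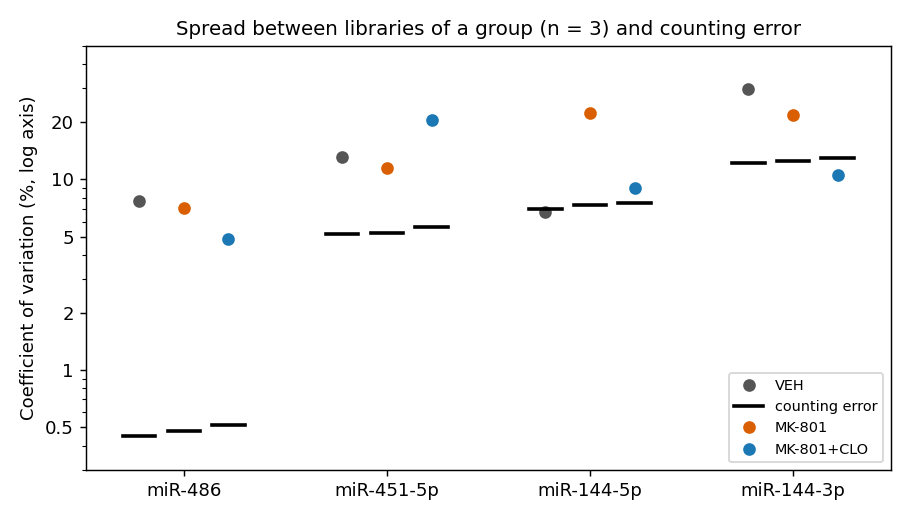
Coefficient of variation (percent, log axis) of the level between the 3 libraries of each group (points) and the value expected from counting alone (black bars) for 4 miRNAs. MiR-486 varies by 4.87% to 7.67% against about 0.5% from counting, while miR-144-3p in MK-801+CLO and miR-144-5p in VEH lie at the counting error.

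Rows that come from 1 locus, or from 1 kind of cell, can be asked whether they vary together between libraries. Over the 9 libraries none of the 6 pairs did so past the test. The highest Pearson correlation of log2 CPM was that of miR-144-5p with miR-486, at r = 0.643 (exact permutation p = 0.06, adjusted over 6 pairs 0.36) and Spearman rho = 0.517 (exact permutation p = 0.162, adjusted 0.485). Without the 2 libraries farthest from the median of miR-144-5p, MK-801 replicate 1 and MK-801+CLO replicate 2, it was r = 0.408. MiR-144-5p with its neighbour miR-451-5p gave r = 0.553 (exact permutation p = 0.122, adjusted 0.366) and rho = 0.683 (exact permutation p = 0.0503, adjusted 0.302). That pair was at r = 0.613 without the same 2 libraries and at r = 0.477 once group means were subtracted. MiR-451-5p with miR-486 gave r = 0.343 (exact permutation p = 0.36, adjusted 0.673) and rho = 0.35 (exact permutation p = 0.359, adjusted 0.538), and r = -0.0356 without MK-801 replicate 3 and MK-801+CLO replicate 1. Leaving out VEH replicate 2 alone put that pair at r = 0.675, leaving out MK-801 replicate 3 alone at r = 0.16, and miR-144-5p with miR-486 was at r = 0.85 without VEH replicate 2, but at 0.383 when MK-801 replicate 1 was left out.

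The 2 arms of the miR-144 hairpin gave r = -0.0572 (exact permutation p = 0.886, adjusted 0.886) and rho = 0.117 (exact permutation p = 0.776, adjusted 0.81), and r = -0.0443 without VEH replicate 3 and MK-801 replicate 2. MiR-144-3p with miR-451-5p gave r = 0.288 (exact permutation p = 0.448, adjusted 0.673) and rho = 0.35 (exact permutation p = 0.359, adjusted 0.538), and r = 0.415 without those libraries. With miR-486 it gave r = 0.0881 (exact permutation p = 0.82, adjusted 0.886) and rho = 0.1 (exact permutation p = 0.81, adjusted 0.81), and r = -0.26 without them. Levels rest on few counts for miR-144-3p, and 9 libraries limit what a correlation can show. The share of miR-144-3p among miR-144 counts was 25.7% ± 4.19 in VEH, 26.1% ± 8.10 in MK-801 and 25.8% ± 2.81 in MK-801+CLO. It ranged from 18.0% (95% Wilson interval 14.2% to 22.6%) in MK-801 replicate 2 to 34.2% (28.4% to 40.6%) in MK-801 replicate 1, both of 1 group. Exact two-sided permutation tests of the group difference in this share gave p = 1, 0.9 and 1, where 3 against 3 libraries cannot go below 0.1.

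**Figure D5:**
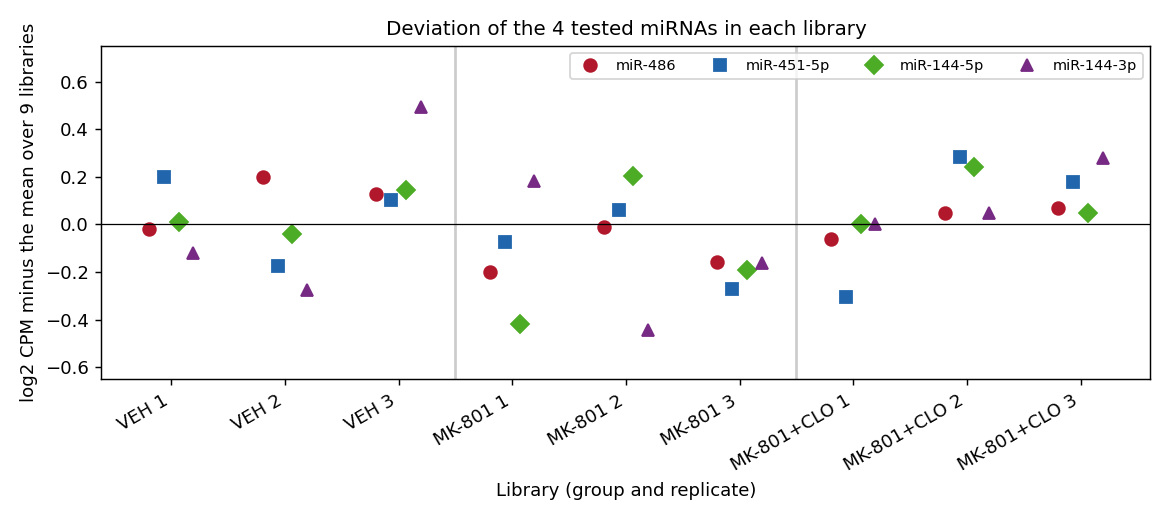
Deviation of log2 CPM from the mean over 9 libraries for miR-486, miR-451-5p, miR-144-5p and miR-144-3p, by library. In MK-801 replicate 3 all 4 lie below 0 and in VEH replicate 3 and MK-801+CLO replicates 2 and 3 all 4 lie above, while in MK-801 replicates 1 and 2 miR-144-3p and miR-144-5p lie on opposite sides.

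The miRNAs whose levels followed miR-451-5p and miR-486 most closely were looked up among 330 other tested miRNAs of at least 10 CPM. For miR-451-5p these were miR-499-5p (r = 0.722), miR-423-5p (0.700), miR-26b-3p (0.629), miR-872-5p (0.615) and miR-26a-5p (0.605), as Pearson's r of log2 CPM over 9 libraries. For miR-486 they were miR-1249 (r = 0.837), miR-125b-1-3p (0.829), miR-485-5p (0.798), miR-380-3p (0.785) and miR-434-3p (0.735). With group means subtracted, r was 0.595 to 0.787 for the 5 of miR-451-5p and 0.667 to 0.736 for the 5 of miR-486. No miRNA was in both sets, none belongs to the list of further red cell miRNAs, and miR-499-5p is on the striated muscle list. Of that red cell list miR-363-3p, miR-183-5p and miR-96-5p averaged under 10 CPM and could not appear. The others were few among the 330, so no conclusion is drawn from their absence. These r values are a description without a test, since the highest of 330 were taken, and all points share the library totals.

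Other miRNAs that are abundant in red blood cells, most of them also made by brain cells, were set beside these rows. Of the 12 on the list, 11 were tested. In MK-801 against VEH 8 of the 11 had an estimate above 0 and 3 below, while 53.5% of all tested miRNAs were below 0. The median log2 fold change of the 11 was 0.08, against -0.02 for all and -0.16 for the 4 members. In MK-801+CLO against MK-801 and against VEH 7 of the 11 were above 0 and 4 below. Of all tested miRNAs 48.8% and 50.1% were above 0 there. The medians of the 11 were 0.04 and 0.09, against -0.0044 and 0.0034 for all and 0.23 and 0.09 for the members. MiR-16-5p, the most abundant, was at 5309 ± 511 CPM in VEH, 5346 ± 592 CPM in MK-801 and 5992 ± 474 CPM in MK-801+CLO. MiR-25-3p was at 866 ± 119, 942 ± 82.8 and 939 ± 174 CPM, and miR-92a-3p at 47.4 ± 2.69, 56.0 ± 9.85 and 61.6 ± 14.7 CPM. In the other direction, miR-185-5p was at 156 ± 2.33, 147 ± 7.68 and 133 ± 17.2 CPM, and miR-182 at 120 ± 46.6, 107 ± 49.5 and 92.8 ± 39.7 CPM. MiR-363-3p was at 2.44 ± 0.196, 2.03 ± 0.141 and 2.48 ± 0.636 CPM. None passed an adjusted p of 0.05 in any comparison. At an unadjusted p under 0.05 miR-92a-3p in MK-801+CLO against VEH was the 1 that was called (0.44 ± 0.18, log2, edgeR adjusted p = 0.288), while 14.9% of all tested miRNAs were called there, in either direction.

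Markers of other cells that come with blood or vessels gave these values. White blood cell miRNAs (5 of 5 found, none at 0 throughout) summed to 765 to 889 CPM in VEH, 761 to 795 CPM in MK-801 and 853 to 1076 CPM in MK-801+CLO, of which miR-150-5p made up most. The myeloid miR-223-3p was at 1.47 ± 0.392, 1.86 ± 0.209 and 2.05 ± 0.861 CPM, and miR-142-5p, of blood-derived cells and microglia, at 39.7 ± 2.56, 45.8 ± 2.96 and 41.1 ± 0.329 CPM. Vessel wall miRNAs (6 of 6 found) summed to 21841 to 25140, 22715 to 24167 and 25684 to 30250 CPM in the same order of groups, most of it miR-143-3p of smooth muscle (21311 ± 1822 CPM in MK-801+CLO). Both sums overlapped in MK-801 against VEH. Of the white blood cell miRNAs 3 were above 0 and 2 below, while 53.5% of all tested miRNAs were below 0. Their median log2 fold change was 0.23, against -0.02 for all and -0.16 for the 4 tested members. MiR-142-5p was the 1 called higher at an unadjusted edgeR p under 0.05 (log2 0.23, adjusted p = 0.814). On the higher side 14 of 469 were called. Of the 5 tested vessel miRNAs 2 were above 0 and 3 below, and none was called. In MK-801+CLO against MK-801 the 4 tested members had estimates above 0. The summed white blood cell and vessel wall levels did not overlap between these groups and were higher with clozapine (single miRNAs did so for 4.69% of those tested). Of the 5 white blood cell miRNAs 3 were above 0 and 2 below, with miR-142-3p at log2 -0.26 and miR-142-5p at -0.12. Of the 5 tested vessel miRNAs 4 were above 0 and 1 below, where 48.8% of all tested miRNAs were above 0. At an unadjusted edgeR p under 0.05 on the higher side, 2 of the 5 vessel miRNAs and 1 of the 5 white blood cell miRNAs were called (also 4.69% of those tested). They were miR-143-3p and miR-126a-3p of the vessel list and miR-150-5p of the white blood cell list. MiR-143-3p and miR-150-5p make up most of the sums, so sums and calls are not separate observations. In MK-801+CLO against VEH the vessel sums did not overlap either (17.5% of tested miRNAs did not). There 3 of 5 tested vessel miRNAs had an unadjusted edgeR p under 0.05, all higher. By sign, 4 of the 5 were above 0 and 1 below, where 50.1% of all tested miRNAs were above 0. The 1 below was miR-145-5p at log2 -0.21, with 295 ± 136 CPM in MK-801+CLO and 353 ± 61.5 CPM in VEH. Of all tested miRNAs 14.9% were called in either direction, and 35 of the 469 on the higher side. In this comparison the log2 fold change was -0.02 for miR-486, 0.08 for miR-451-5p, 0.12 for miR-144-5p and 0.09 for miR-144-3p. The white blood cell sums of these groups overlapped. The part of blood or vessel content in the 5 rows was not tested. In bulk tissue, fewer cells of a type and less RNA per cell cannot be told apart.

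Since miR-486 is also a muscle miRNA, striated muscle markers were read as well. Of the 7 on the list, 5 were in the table. MiR-1-3p was at 0.330 ± 0.215, 0.170 ± 0.102 and 0.254 ± 0.159 CPM, near the level that a count of 0 allows. MiR-133a-3p was at 19.1 ± 0.869, 19.2 ± 3.57 and 25.5 ± 6.20 CPM, and the 5 summed to 42.3 to 61.2 CPM over the libraries. Of the 4 tested, 1 was above 0 in MK-801 against VEH, where 53.5% of all were below. In MK-801+CLO against MK-801 and against VEH 4 and 3 were above 0, as were 48.8% and 50.1% of all. MiR-133a-3p was the 1 called there at an unadjusted edgeR p under 0.05, both times higher (adjusted p = 0.526 and 0.254). Of all tested miRNAs 8.32% and 14.9% were called in either direction. The liver miRNA miR-122-5p, which circulates in plasma, was at 0.240 ± 0.0691, 0.411 ± 0.186 and 0.425 ± 0.219 CPM. It and the other 2 liver and plasma markers summed to 1492 to 3022 CPM, nearly all of it miR-192-5p. No tested member of the neuron, red cell, white blood cell, vessel, liver or muscle lists passed an edgeR adjusted p of 0.05 in any of the 3 comparisons.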

How the data were processed

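The authors deposited 1 table of whole-number counts per mature miRNA and library, with a second set of values headed TPM. These deposited values equal CPM, each count divided by its library total and scaled to a common total (largest relative difference 0.000473%), with no length term. The submitters' processing notes list Bowtie, cutadapt 1.14 and DESeq beside build Rnor_6.0, with no role for each. The treatment of reads that fit several miRNAs was not stated in the sources used here. The table had 21 blank lines and 1 name split over lines, which was rejoined. Libraries were grouped by their titles.

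From the counts, edgeR 4.0.16 (R 4.3.3) was run with filterByExpr (469 of 633 miRNAs kept, 4 of the 5 rows described), TMM factors, all 9 libraries, 1 mean per group, glmQLFit, glmQLFTest and Benjamini-Hochberg adjustment at 0.05. SE was derived from the F statistic (size of the log2 fold change over root F), and intervals use its t quantile. Single-library intervals are Wilson's (SciPy 1.17.1). Depth was 10665718 to 18284905 counts. The code was tested on simulated data. Any marker list member, the 5 rows and the 5 miRNAs most like miR-451-5p and miR-486 could be named. The rows, marker lists, comparisons and tests were chosen with earlier results of these data known. The chi-square statistic of library pairs within a group was at least 263 per degree of freedom, so no libraries were merged. Alternatives were DESeq2 1.42.0, limma voom (3.58.1), RLE, upper-quartile and no factors, no filter, at least 10 CPM, a replicate block, fits to the 2 groups compared alone, each library left out, and counts without the 5 miRNAs of highest level. RefSeq sequences and positions are those of GRCr8, another build than that of the authors.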

Additional observations from a re-analysis of the deposited data

How the results depend on the processing

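None of the 4 tested rows passed an adjusted p of 0.05 in any of the 3 comparisons under any alternative run. The number of miRNAs past the threshold was 0 in each comparison with edgeR and with limma voom and all libraries, where edgeR gave 24, 39 and 70 at an unadjusted p under 0.05. It was 1, 2 and 11 with DESeq2 for MK-801 against VEH, MK-801+CLO against MK-801 and MK-801+CLO against VEH. Leaving out single libraries gave 0 to 1, 0 to 2 and 0 to 7, the highest without MK-801 replicate 2 in the first and without MK-801+CLO replicate 2 in the others. Leaving out single libraries moved the log2 fold change of miR-144-3p from -0.37 to 0.10 in MK-801 against VEH and from -0.042 to 0.37 in MK-801+CLO against VEH. In the latter it moved miR-451-5p from -0.055 to 0.27 and miR-486 from -0.084 to 0.041, so the sign of these 3 turned with single libraries. The correlation of the 2 miR-144 arms was 0.0482 with TMM factors and ran from -0.304 to 0.205 without single libraries, and that of miR-144-3p with miR-486 from -0.213 to 0.392. The cause of these shifts was not tested. With the replicate number as a block, 0 miRNAs passed in each comparison. The labels do not tie equal numbers to a shared animal or batch, and same-numbered libraries deviated together at r = -0.345 to 0.129, over 0.1 in 2 of 9 pairs. MiR-451-3p had too few counts to be tested.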
